A study of Homo sapiens and Mus musculus with 13 samples.

Results

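RNA:DNA hybrids in 3T3 cells, an embryonic fibroblast line of the mouse, were mapped in 2 ways, and the maps are set side by side here peak by peak. The DRIPc-seq list records the RNA strand of the recovered hybrids and held 39905 peaks, each on the plus or the minus strand. The DRIP-seq list records the DNA recovered with the hybrids and held 35894 peaks. Its strand column has a plus sign in 35795 rows and a minus sign in 99, and it was not used, since the assay does not keep the strand of the RNA. All 75799 peaks of both lists were used, out of 454693 peaks in the 9 lists of the series. For both libraries the labels name the same cell line and the same mix of restriction enzymes, HindIII, EcoRI, BsrGI, XbaI and SspI. The labels give no treatment for either library, whereas the name of the DRIPc list mentions RNase A, so whether that library received the enzyme is not known. The rest of the series used here consists of DRIP-seq of E14 mouse embryonic stem cells and of DRIPc-seq and DRIP-seq of human NT2 embryonal carcinoma cells, all cut with the same mix.

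An R-loop forms when an RNA pairs with its template DNA strand and leaves the other DNA strand unpaired. In DRIP-seq, restriction enzymes cut the genome and an antibody, S9.6, pulls down the hybrids, so whole restriction fragments are recovered and a peak can reach past the hybrid to the fragment's ends. In DRIPc-seq, the DNA of the recovered material is removed and the RNA is sequenced with its strand, so a peak follows the RNA. The comparison therefore asks how well the positions of the RNA and of the recovered DNA coincide, and on which side of the DNA map the RNA reaches further.

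Each 3T3 list came from 1 sample, so no value below has a replicate check and no p-value was computed. The lists hold positions only, with no read counts, and the depth of both libraries is unknown. A missing peak is a region not called at that depth. Shares carry exact Clopper-Pearson 95% intervals in brackets, which reflect only the error of counting, and neighbouring peaks are not independent replicates. Positions are on mm9 and counted from 1. Regions are given without gene names, since no mm9 annotation was used here, and the cell type could not be checked against marker genes.

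The RNA map consisted of shorter pieces than the DNA map. DRIPc peaks had a median length of 1060 bp and quartiles of 470 and 2440 bp, whereas DRIP peaks had a median of 2186 bp and quartiles of 1025 and 4415 bp. Both lists had a long tail, with a longest peak of 63.7 kb in DRIPc and 77.0 kb in DRIP. The plus and minus strands of DRIPc resembled each other, each with a median of 1060 bp, and covered 46.5 and 45.0 Mb. DRIPc positions are all multiples of 10 bp, so distances below carry that grain. In the DRIP list, 2771 peaks end 1 bp before the next begins, which means that some DRIP edges are borders between 2 listed peaks rather than the end of the signal.

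RNA and DNA maps shared 35.9 Mb. This was 41.5% of the length covered by DRIPc and 29.3% of the length covered by DRIP. By peak, 58.2% (57.8 to 58.7%) of DRIPc peaks touched a DRIP peak by at least 1 bp, 58.5% of the plus and 58.0% of the minus strand peaks. Contact was usually extensive, with a median shared length of 990 bp. For 48.8% of all DRIPc peaks at least 50% of the length was covered, and 35.7% (35.2 to 36.2%) lay entirely within DRIP peaks. At the limit of the 1 bp rule, 486 DRIPc peaks touched DRIP by 100 bp or less, and 390 lay within 100 bp of a DRIP peak without touching it.

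Longer DRIPc peaks touched DRIP more often. The share was 42.0% (41.02 to 42.95%) for peaks of 90 to 470 bp, 56.4% for those of 480 to 1060 bp, 65.4% for those of 1070 to 2440 bp and 69.3% (68.4 to 70.3%) for those of 2450 bp or more. The difference between the last 2 classes was small although lengths in the last reached 63.7 kb. A longer peak has more room to meet another. The median was 1340 bp for DRIPc peaks that touched DRIP and 750 bp for the rest.

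Of the touching DRIPc peaks, 28.5% (27.9 to 29.0%) formed a pair with a single DRIP peak that touched no other DRIPc peak. Of the 16361 touched DRIP peaks, 37.3% (36.6 to 38.1%) carried 2 or more DRIPc peaks, at most 19. Of the 23244 touching DRIPc peaks, 14.1% (13.7 to 14.6%) reached 2 or more DRIP peaks, at most 9. Such DRIPc peaks ran across 4065 gaps between DRIP peaks. Of these gaps, 1247 were 1 bp or less, so that the DRIP list had a border between adjoining peaks there. The other 2818 gaps had a median of 898 bp and quartiles of 251 and 2224 bp, and across them the RNA map continued where the DNA map had no call.

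The position of the edges was read in the 6616 pairs in which each peak touched no other. Each pair was turned so that the DRIPc peak runs from its start to its end along the RNA strand. The start is the peak's border on the 5′ side and need not be the 5′ end of an RNA. In these pairs the DRIPc peak was usually the smaller one, with a median of 1300 bp where the DRIP peak had 2727 bp, and a median length ratio of 0.521 (0.499 to 0.546). The DRIPc peak was the longer one in 32.5% of pairs. Distances from a DRIP edge are positive downstream of it and negative upstream of it. The DRIPc start lay at a median of 482.5 bp from the DRIP 5′ edge (quartiles -350 and 1621 bp), inside the peak. The DRIPc end lay at a median of -393 bp from the 3′ edge (quartiles -1535 and 429 bp), also inside.

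**Figure D1:**
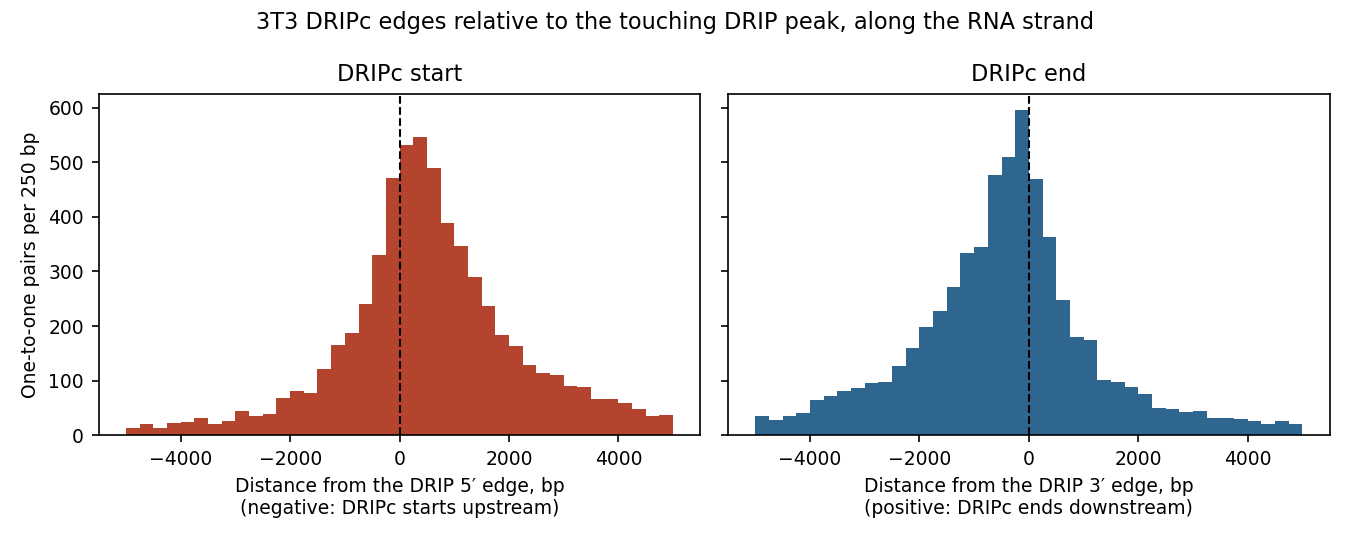
Number of one-to-one pairs per 250 bp (vertical axes) by the distance in bp of the 3T3 DRIPc start from the DRIP 5′ edge (left) and of the DRIPc end from the DRIP 3′ edge (right), within 5 kb and read along the RNA strand. Both distributions peak close to the edge and lean towards the inside of the DRIP peak, with medians of 482.5 bp from the 5′ edge and -393 bp from the 3′ edge.

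Of the possible arrangements, the RNA inside the DNA peak was the most frequent. The DRIPc peak lay inside the DRIP peak in 3047 pairs, or 46.1% (44.8 to 47.3%). It ran past the 3′ edge only in 1309 pairs (19.8%) and past the 5′ edge only in 1179 (17.8%). It ran past both edges, and so held the whole DRIP peak, in 1081 pairs (16.3%, 15.5 to 17.3%). Counted by edge, 36.1% (35.0 to 37.3%) of DRIPc peaks ended downstream of DRIP and 34.2% (33.0 to 35.3%) started upstream of it. The plus strand gave 36.3% and 33.8%, and the minus strand 35.9% and 34.6%.

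The 2 sides differed only slightly. Among the 2488 pairs past 1 edge alone, 52.6% (50.6 to 54.6%) were past the 3′ edge. On the plus strand this share was 53.5% (50.6 to 56.3%). On the minus strand it was 51.8% (48.9 to 54.6%), an interval that includes 50%. With strand ignored, 50.8% (48.9 to 52.8%) of the same pairs ran past the right edge. DRIPc peaks that lay inside DRIP leaned to neither side, with a median centre at 50.2% (48.8 to 51.3%) of the DRIP length from the 5′ edge. Their centres were spread along the DRIP peak, with quartiles of 34.1 and 66.4%. Where the RNA did extend, it extended by like amounts on both sides: a median of 903 bp (842 to 975 bp) downstream and 861 bp (813 to 929 bp) upstream. Extensions of at least 1 kb were found downstream in 17.1% of pairs and upstream in 15.6%. Those of at least 5 kb were found in 3.36% of pairs downstream and 3.42% upstream.

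Extension followed the lengths of both peaks. DRIPc peaks of 90 to 560 bp, the shortest quartile of the pairs, lay inside DRIP in 78.2% of cases, ended downstream of it in 10.7% and started upstream of it in 11.5%. DRIPc peaks of 3060 bp or more lay inside in 11.9%, ended downstream in 70.3% (68.0 to 72.5%) and started upstream in 65.7% (63.3 to 67.9%), and 47.8% of them held the whole DRIP peak. The extension itself was longer for these long peaks, with a median of 2252 bp downstream and 2064 bp upstream, whereas the shortest quartile had medians of 158.5 bp downstream and 159 bp upstream. DRIP length gave the opposite order. Next to DRIP peaks of 104 to 1318 bp, 64.4% of DRIPc peaks ended downstream and 64.4% started upstream. Next to DRIP peaks of 4790 bp or more, these shares were 14.1% and 11.1%. A long interval placed on a short one must reach past it, so these shares are partly fixed by the lengths.

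**Figure D2:**
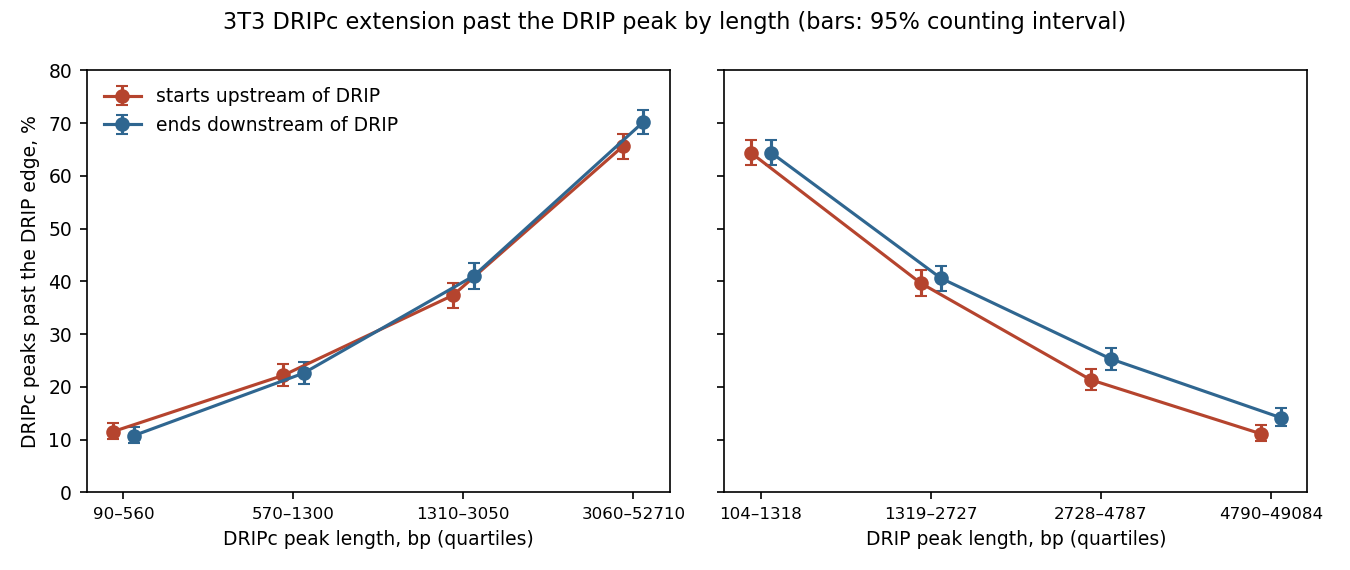
Percentage of 3T3 DRIPc peaks that start upstream (red) or end downstream (blue) of their DRIP peak, in one-to-one pairs, by quartile of DRIPc length (left) and DRIP length (right) in bp, with 95% counting intervals. In the longest DRIPc quartile 65.7% started upstream and 70.3% ended downstream, against 11.5% and 10.7% in the shortest.

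The small surplus on the downstream side was found in the longer classes, with intervals that overlap those of the shorter ones. Of pairs past 1 edge only, the downstream share was 48.2% (42.9 to 53.5%) in the shortest DRIPc quartile, 50.6% in the second, 53.6% in the third and 55.7% (51.8 to 59.5%) in the longest. By DRIP length it was 50% (46.5 to 53.5%) in the shortest quartile and 57.4% (51.96 to 62.8%) in the longest. In the 731 pairs of like length, in which the shorter peak had at least 0.8 of the length of the longer, it was 51.8% (47.8 to 55.8%). No difference between quartiles was tested.

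Even where the lengths matched, edges of the RNA and DNA maps rarely fell together. In all one-to-one pairs, 6.35% of DRIPc starts lay within 100 bp of the DRIP 5′ edge and 6.71% of DRIPc ends within 100 bp of the 3′ edge. In pairs of like length both shares were 13.3% (10.9 to 15.9%). For comparison, 3T3 DRIP was set against E14 DRIP, another cell type with the same assay and enzymes. There, 17.2% of edges on each side lay within 100 bp in 11343 one-to-one pairs, and 31.5% (29.8 to 33.2%) in the 2957 pairs of like length. The 3T3 DNA map thus shared its edges more often with the DNA map of another cell type than with the RNA map of the same cells. These shares differ by more than their counting intervals, and a difference between assays cannot be told apart from one between libraries or peak callers.

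The DRIP classes that the authors' list names differed in how they framed the RNA. DRIPc lay inside the DRIP peak in 68.4% (64.3 to 72.3%) of the 547 pairs with a Noisy_BroadPeak, against 43.5% (42.2 to 44.8%) of the 5816 pairs with a Noisy_MedPeak. It held the whole peak in 3.66% and 17.8% of these pairs. Median DRIP lengths were 3112 bp in the first class and 2638 bp in the second. Median DRIPc lengths were 1060 and 1350 bp, and median ratios of DRIPc to DRIP length were 0.389 and 0.552. Whether these lengths alone give the difference between the classes was not tested. The 179 pairs with a Sparse_MedPeak and the 74 with a Sparse_SharpPeak lay inside in 54.7% and 62.2%.

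The longest extensions were ranked within the one-to-one pairs, so each has a single DRIP peak by selection. Extensions in the wider set described further on reached 52633 bp downstream and 53844 bp upstream. Downstream, the 5 largest in one-to-one pairs ran from 27.6 to 35.4 kb. The largest belonged to a minus strand peak of 42.8 kb on chromosome 8 from 75791341 to 75834160, which started at -5635 bp from the 5′ edge of a DRIP peak of 1.79 kb (75826737 to 75828525) and went on for 35.4 kb beyond its 3′ edge. Next was a plus strand peak of 47.8 kb on chromosome 2 from 103471101 to 103518930, which continued for 35.2 kb past a DRIP peak of 2.06 kb. In another arrangement, a plus strand peak on chromosome 8 from 129884561 to 129913660 started 1007 bp inside its DRIP peak (129883554 to 129886028), left it at the 3′ edge and continued for 27.6 kb.

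Upstream, the 5 largest extensions in one-to-one pairs ran from 33.0 to 47.0 kb. The largest was on chromosome 10, where a minus strand peak of 52.7 kb (72653591 to 72706300) started 47.0 kb upstream of a DRIP peak of 0.744 kb and ended 4986 bp downstream of it. A minus strand peak on chromosome 14 (32530961 to 32573030) started 40.8 kb upstream of a DRIP peak of 2.77 kb and ended at -1456 bp from its 3′ edge, inside it. Of the 10 DRIP peaks at these extensions, 7 touched an E14 DRIP peak, and all 10 belonged to the class Noisy_MedPeak. That class makes up 5816 of the 6616 one-to-one pairs. Over these pairs the DRIP peak touched E14 DRIP in 48.4% where DRIPc ran past both edges. The share was 60.9% past the 5′ edge only, 60.8% past the 3′ edge only and 74.0% with DRIPc inside. Neither count is therefore read as a trait of the extended peaks.

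The 5 longest DRIPc peaks that held a DRIP peak held from 2 to 8 each. A minus strand peak of 63.7 kb on chromosome 8 from 126060521 to 126124250, the longest DRIPc peak of all, touched 7 DRIP peaks and held 5 of them. A plus strand peak of 61.6 kb on chromosome 8 (81203811 to 81265360) held 4, the largest of 6.45 kb. A minus strand peak of 59.0 kb on chromosome 4 (80962281 to 81021310) held 8, none longer than 2.08 kb. Along these RNAs the DNA map consisted of 2 or more separate calls. A long peak has more room to hold several. The peak of 52.7 kb on chromosome 10 named above, nearly as long, touched only 1.

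A wider set gave larger shares past the edges. It held the 12890 DRIP peaks that carried DRIPc peaks of 1 strand, 20.4% of which carried 2 or more, and the outermost start and end were read. Unlike the one-to-one pairs, it admits DRIPc peaks that touch several DRIP peaks, so the effects of the wider set and of joining cannot be told apart here. The joint DRIPc span had a median of 3210 bp, close to the 3019 bp of these DRIP peaks. It ended downstream of DRIP at 48.9% (48.1 to 49.8%) and started upstream at 47.3% (46.4 to 48.1%), and it lay inside at 30.2%. Of spans past 1 edge only, 51.9% (50.6 to 53.2%) were past the 3′ edge. Along these DRIP peaks the strand's DRIPc cover was highest near the middle, at 55.8% of peaks. It was 49.7% in the last and 47.7% in the first of 20 bins. Just over 1 kb outside the peak it was 37.8% downstream and 36.6% upstream, and near 5 kb outside it was 29.2% and 28.5%. Each of these DRIP peaks was chosen because DRIPc touched it, which by itself raises cover inside the peak above that outside. The fall from the middle to the flanks is therefore not a separate result.

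**Figure D3:**
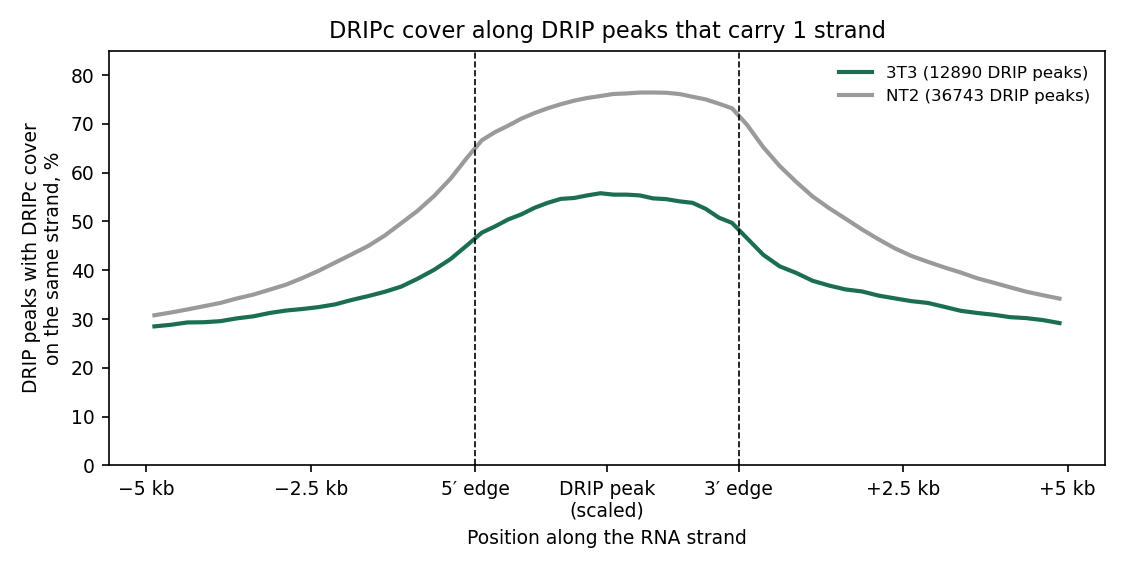
Percentage of DRIP peaks carrying 1 strand (12890 in 3T3, green; 36743 in NT2, grey) that had DRIPc cover of that strand (vertical axis) at each position along the RNA strand, in 20 bins of the scaled DRIP peak and in steps of 250 bp to 5 kb on each side. In 3T3 the curve is close to symmetric with its highest value of 55.8% near the middle, and in NT2 it is highest at 76.4% in the downstream part of the peak. The peaks were chosen for touching DRIPc, so higher cover inside than outside follows from the selection.

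The same reading in the human NT2 lists gave another picture. In 14662 one-to-one pairs the DRIPc peak was the longer one in 60.9% of cases in NT2, against the 32.5% above in 3T3, and lay inside the DRIP peak in 21.3% (20.6 to 22.0%) instead of 46.1%. In pairs of like length, the inside share was 10.7% (8.53 to 13.1%) in 3T3 and 8.07% (6.94 to 9.32%) in NT2. These intervals overlap. For DRIPc peaks of 2000 to 5000 bp it was 24.5% and 10.5%, with median DRIP lengths of 2698 and 1433 bp. The part of length in the inside share was not tested. The downstream side was also favoured more strongly in NT2. Of pairs past 1 edge only, the downstream share was 52.6% in 3T3 and 61.4% (60.3 to 62.6%) in NT2. Among pairs of like length it was 51.8% (47.8 to 55.8%) in 3T3 and 59.0% (56.7 to 61.3%) in NT2. For DRIPc peaks of 2000 to 5000 bp it was 55.6% (51.9 to 59.1%) in 3T3 and 63.2% (61.3 to 65.1%) in NT2. The intervals of the downstream share are apart in these comparisons. For DRIPc peaks below 500 bp they overlap, at 48.5% (42.6 to 54.3%) in 3T3 and 52.8% (47.6 to 57.9%) in NT2. Cell line, library, list and, for NT2 DRIPc, the joining of 2 samples in 1 list cannot be told apart.

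Seen from the DNA map, most DRIP peaks with RNA had it on a single strand. Both strands were found at 3471 DRIP peaks, 9.67% (9.37 to 9.98%) of the list, 1 strand at 12890 (35.9%, 35.4 to 36.4%), and none at 19533 (54.4%, 53.9 to 54.9%). The single strand was the plus strand in 6554 cases and the minus strand in 6336. Of DRIP peaks with any DRIPc, 21.2% (20.6 to 21.8%) carried both strands, against 10.9% (10.6 to 11.2%) in NT2. This 3T3 share rose from 5.57% in the shortest to 34.0% in the longest DRIP quartile. The DRIP lists differ in length, with medians of 2186 bp in 3T3 and 1206 bp in NT2. The cell lines were not compared at like DRIP length here, so the part of length was not tested. Median lengths were 6039 bp with both strands, 3019 bp with 1 and 1509 bp with none.

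Within quartiles of DRIP length, the share with both strands was 1.30% for peaks of 100 to 1025 bp, 3.71% up to 2186 bp, 8.73% up to 4414 bp and 24.9% (24.0 to 25.8%) above. The share with 1 strand over the same classes was 22.1%, 31.6%, 41.5% and 48.4%. The share with none was 76.6% in the shortest and 26.6% in the longest class. The classes of the authors' list differed within 1 length quartile. In the longest, both strands were found at 62.4% (59.9 to 64.9%) of peaks named Noisy_BroadPeak and at 64.8% (57.4 to 71.8%) of those named Sparse_SharpPeak. The shares were 17.3% (16.4 to 18.2%) for Noisy_MedPeak and 4.19% (2.41 to 6.71%) for Sparse_MedPeak. Lengths vary within this quartile, and no test was made.

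**Figure D4:**
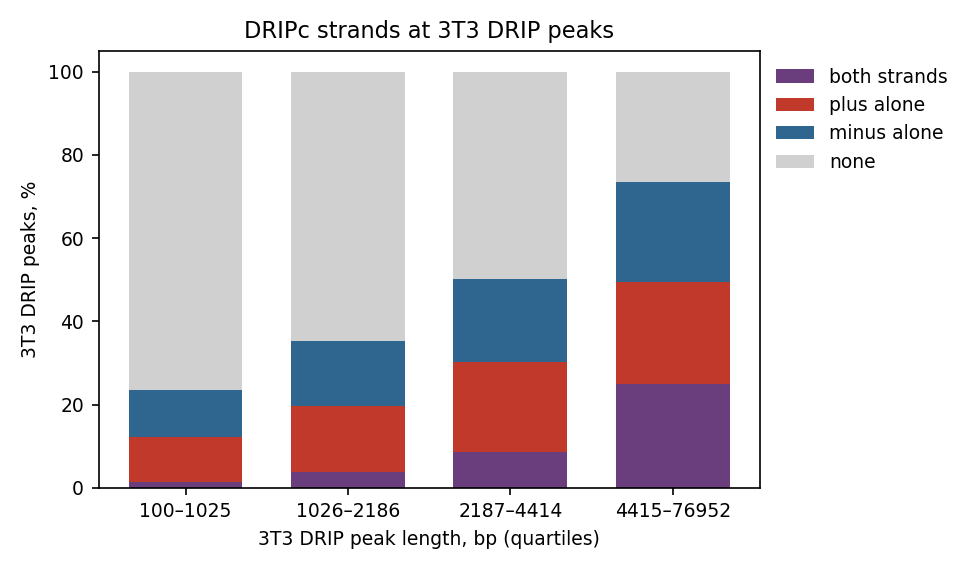
Percentage of 3T3 DRIP peaks (vertical axis) with DRIPc on both strands, on the plus strand alone, on the minus strand alone or on none, by quartile of DRIP length in bp. Peaks with none make up 76.6% of the shortest quartile and 26.6% of the longest, and those with both strands make up 24.9% of the longest.

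Where both strands were present, their RNAs usually lay over each other. At 3050 of the 3471 DRIP peaks with both strands, or 87.9% (86.7 to 88.9%), a plus and a minus DRIPc peak overlapped. At 191 (5.50%) the minus strand lay to the left of the plus strand, pointing apart, with a median gap of 1120 bp. At 175 (5.04%) the strands pointed towards each other, with a median gap of 1230 bp, and at 55 they alternated. The counts of diverging and converging pairs did not differ beyond their intervals (4.77 to 6.31% and 4.34 to 5.82%). In NT2, by contrast, 9.08% (8.26 to 9.96%) diverged and 3.59% (3.07 to 4.18%) converged. Overlapping strands in 3T3 varied in how closely they matched. The shared length had a median of 39.2% of the joint span and reached at least 50% of it in 37.4% (35.7 to 39.2%) of cases. In NT2 it reached at least 50% in 29.2%. Both edges fell within 100 bp in 3.11% of cases in 3T3. The minus strand peak was centred to the left of the plus strand peak in 54.5% (52.7 to 56.3%) of overlapping cases in 3T3, against 45.4% (43.8 to 46.9%) in NT2.

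Overlap of the strands went with the DNA map. Of plus strand DRIPc peaks that touched DRIP, 30.4% (29.6 to 31.2%) also touched a minus strand peak, against 4.59% (4.15 to 5.06%) of those that touched no DRIP peak. The gap was present in each length quartile of the plus strand peaks. In the shortest quartile the shares were 23.8% with DRIP and 6.07% without, and in the longest they were 31.7% (30.2 to 33.3%) and 2.27% (1.58 to 3.14%). Whether opposite RNAs at these sites come from the same cells or alleles was not tested.

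In the 5 longest DRIP peaks with both strands, the strands ranged from nearly equal to very unequal cover. On chromosome 8 from 126091003 to 126137447, a peak of 46.4 kb and class Sparse_SharpPeak was covered by DRIPc over 100% of its length, with 46.1 kb on the plus and 46.3 kb on the minus strand. The minus strand peak of 63.7 kb named above starts within it. On chromosome 6 from 47595776 to 47637038, a Noisy_BroadPeak of 41.3 kb was likewise nearly full on both strands, 41.2 kb plus and 40.5 kb minus. The longest of the 5, 62.6 kb on chromosome 5 from 125496535 to 125559103, carried 7 plus and 12 minus peaks that covered 29.1% of it. On chromosome 11 from 117116964 to 117163994, 15.6 kb was on the plus and 0.48 kb on the minus strand. A Noisy_BroadPeak of 45.7 kb (chromosome 1, 95154192 to 95199870) had 33.4 kb on the plus and 16.9 kb on the minus strand. All 5 touched an E14 DRIP peak, as did 86.9% of the peaks with both strands in the longest length quartile.

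Among DRIP peaks with 1 strand, the longest was a Sparse_MedPeak of 77.0 kb on chromosome 11 from 67322074 to 67399025, with 7 plus strand peaks over 38.4% of its length. A peak of 50.3 kb on chromosome 5 (130030510 to 130080821) had 5 plus strand peaks over 81.2%. One of 49.1 kb on chromosome 9 (63812780 to 63861863) had a single minus strand peak over 1.73%. The 1 bp rule therefore counts DRIP peaks with little cover as carrying RNA. Over all touched DRIP peaks the covered part had a median of 51.1% and quartiles of 22.5 and 87.1%. Of DRIP peaks with none, the longest measured 30.9 kb and was on chromosome 7 (151621000 to 151651876). It was followed by 1 of 24.0 kb on chromosome 10 (78993528 to 79017507), and 4 of the 5 longest touched an E14 DRIP peak. In the longest length quartile 77.8% of the peaks with none did, so this count is not read as a trait of these 5.

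E14 DRIP, which played no part in pairing the 3T3 maps, was then used as an outside measure. An E14 DRIP peak was found at 84.1% (82.8 to 85.3%) of 3T3 DRIP peaks with both strands, at 66.1% (65.3 to 66.9%) of those with 1 strand and at 54.6% (53.9 to 55.3%) of those with none. Within length quartiles the gap between 1 strand and none was smaller. In the longest quartile the shares were 78.5% (77.2 to 79.7%) with 1 strand and 77.8% (76.1 to 79.4%) with none, and in the shortest 43.5% (41.4 to 45.8%) and 40.5% (39.3 to 41.7%). In the quartiles between them the gap exceeded the intervals. The second had 58.8% (56.9 to 60.6%) with 1 strand and 53.7% (52.4 to 55.0%) with none, and the third 69.2% (67.7 to 70.7%) and 65.2% (63.8 to 66.6%). Peaks with both strands were above the intervals of the other groups in all 4 quartiles. In the shortest quartile 74.4% (65.5 to 82.0%) of 117 such peaks touched an E14 peak, and in the longest 86.9% (85.4 to 88.3%) of 2238. Lengths still differed within the longest quartile, with medians of 8570 bp for both strands, 6958 bp for 1 strand and 6123 bp for none. Of the 3471 peaks with both strands, 1839 were Noisy_MedPeak, 1431 Noisy_BroadPeak, 166 Sparse_SharpPeak and 35 Sparse_MedPeak. The part of the remaining length difference and of the classes in the higher E14 share was not tested.

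**Figure D5:**
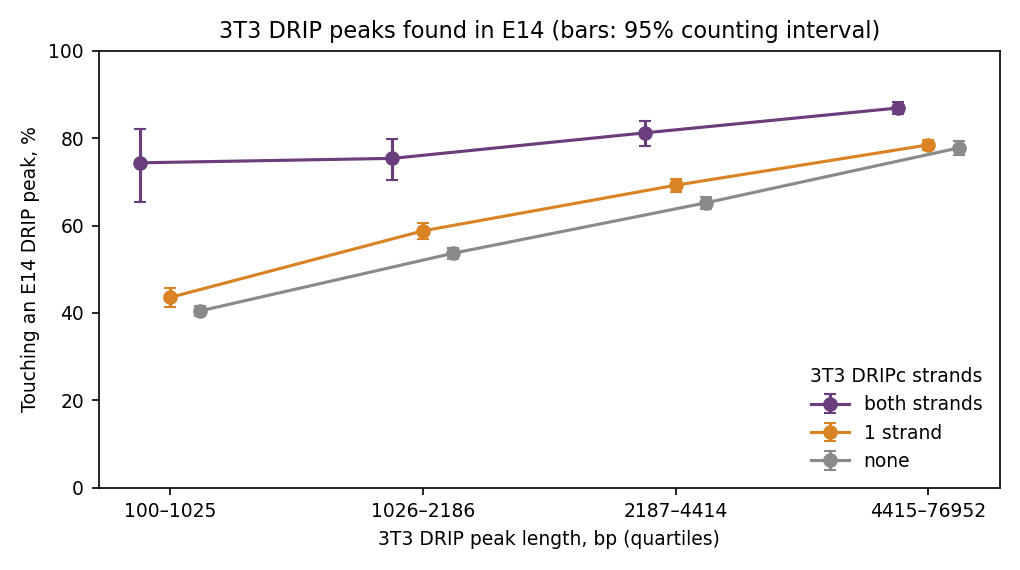
Percentage of 3T3 DRIP peaks that touch an E14 DRIP peak (vertical axis) by quartile of 3T3 DRIP length in bp, for peaks with 3T3 DRIPc on both strands, on 1 strand or on none, with 95% counting intervals. In the shortest quartile 74.4% of peaks with both strands were found in E14, against 43.5% with 1 strand and 40.5% with none.

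The stretches of RNA beyond the DRIP edge were covered in part by E14 DRIP peaks. Of the DRIPc extensions in one-to-one pairs, 40.3% (38.4 to 42.3%) of those downstream and 41.0% (38.9 to 43.0%) of those upstream touched an E14 DRIP peak, and E14 peaks covered 19.1% and 17.1% of their summed length. Each extension adjoins a 3T3 DRIP peak, and the share expected at such a position was not computed. These values therefore do not show that E14 DRIP favours the extensions. DRIP peaks held whole by a DRIPc peak were themselves found in E14 less often, at 48.4% (45.4 to 51.4%), than those with a DRIPc peak inside, at 74.0% (72.4 to 75.5%), and were shorter, with medians of 1059 and 4150 bp. Whether length alone gives this difference was not tested. Among all DRIPc peaks, 67.9% (67.3 to 68.5%) of those touching 3T3 DRIP touched E14 DRIP, against 21.5% (20.9 to 22.1%) of those touching none. Median DRIPc lengths in these groups were 1340 and 750 bp, and the part of length was not tested.

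DRIPc peaks without DRIP lay at widely varying distances from one. Of 16661 such peaks, 16.6% (16.0 to 17.2%) were within 1 kb of a DRIP peak, 44.1% (43.4 to 44.9%) within 5 kb and 81.6% within 50 kb. Another 18.3% lay more than 50 kb away. The shares expected for other positions in the genome were not computed, so these values do not show closeness to DRIP. The median distance was 6682 bp. Where the nearest DRIP peak was within 5 kb, it lay upstream of the DRIPc peak in 52.1% (50.9 to 53.2%) of cases, so the RNA call was slightly more often downstream of the DNA call. The excess over 50% was small, and no test was made.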

How the data were processed

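The deposited peak lists give start and end positions in bp and no height or p-value. The submitters' processing notes name the aligners BWA (0.6.1), TopHat2 (2.0.5) and Bismark (0.7.7), with no role given, and the builds hg19, mm9 and GRCm38. Sequences named like chr1_random are mm9 names, and positions are given on mm9. Starts were read as counted from 0, so positions shift by 1 bp if the authors counted from 1. For the peak caller, threshold and any control, nothing is stated in the labels. The DRIPc strand was taken from the 2 track lines, per the file headers. Class names are the authors' own and were used only to describe peaks within the DRIP list.

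Peaks touched when they shared at least 1 bp. Counts of touching peaks from bedtools 2.31.1 were the same. Python 3.11.15, numpy 2.4.6, pandas 2.3.3, scipy 1.17.1 and matplotlib 3.10.9 were used. Intervals of medians came from binomial ranks. The functions recovered the strand state of all 4000 simulated DRIP peaks. The simulated peaks lay far apart, with a single DRIPc peak per strand at most. Adjoining DRIP peaks and several DRIPc peaks per strand were therefore not covered by this check. Named regions were the 5 longest or most extended of each kind. Members, readings and lists were chosen with earlier results of these data known. The reading by outermost edges, the share past 1 edge only and the strand overlaps were added after the files were read.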

Additional observations from a re-analysis of the deposited data

Results flagged for a closer look

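Over all one-to-one pairs, the median DRIPc edges lay on opposite sides of the DRIP edges in the mouse and human cells. The median DRIPc start was 482.5 bp from the DRIP 5′ edge in 3T3, inside the peak, and -36 bp in NT2, upstream of it. The median DRIPc end was -393 bp from the 3′ edge in 3T3, inside the peak, and 279.5 bp in NT2, downstream of it. The median ratio of DRIPc to DRIP length was 0.521 in 3T3 and 1.42 in NT2. Over all pairs the values have opposite signs, or lie on opposite sides of 1, in the 2 cell lines. At like length the starts did not differ in sign, with medians of 81 bp (12 to 141 bp) in 3T3 and 122.5 bp (88 to 149 bp) in NT2. The ends there had medians of -22 bp (-71 to 28 bp) in 3T3 and 114 bp (81 to 144 bp) in NT2, and the length ratio, which the choice of like lengths holds near 1, was 0.980 and 1.01. There is 1 pair of lists per cell line, and the difference was not tested. Median lengths in these pairs were 1300 bp for DRIPc and 2727 bp for DRIP in 3T3, and 2070 and 1388 bp in NT2.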

How the results depend on the processing

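No paired analysis was possible because each 3T3 list is 1 sample, and for the same reason no replicate could be left out. Requiring 50% cover gave 48.8% of DRIPc peaks in DRIP and 23.2% of DRIP peaks in DRIPc. With the longest 50% of each list, 56.1% of DRIPc peaks touched DRIP, 47.2% of DRIP peaks touched DRIPc, 9.11% of DRIP peaks had both strands, 29.3% of DRIPc peaks started upstream and 32.8% ended downstream. With peaks within 1 kb merged, the touching shares were 59.8% and 44.9%, both strands came to 9.22% and the length ratio to 0.554. At least 100 bp on each strand left both strands at 9.36%. All touching pairs, in place of one-to-one pairs, gave 29.2% upstream, 29.9% downstream and a ratio of 0.321. The following settings were chosen after seeing the data. With DRIP peaks 1 bp apart joined, 44.7% of DRIP peaks touched DRIPc, 9.32% had both strands, 35.4% of DRIPc peaks started upstream and 37.6% ended downstream. Outermost edges at DRIP peaks with 1 strand gave 47.3%, 48.9% and a ratio of 0.983. The share on the downstream side stayed above 50% in all 8 alternatives, between 51.0% and 54.1%. For the minus strand alone its interval included 50% (48.9 to 54.6%), and for all touching pairs it began at 50.04%. All alternatives draw on the same lists and are not independent checks. Of 49 recomputed values, 26 stayed within the interval of the reported one, 23 moved and 0 changed direction. The cause of the moves was not tested beyond what each setting does by construction.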

Other observations

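The share of DRIPc peaks found in DRIP varied between chromosomes. It was 70.5% (68.8 to 72.2%) of 2750 peaks on chromosome 11, 69.8% (67.9 to 71.6%) of 2434 on chromosome 7 and 67.8% (65.8 to 69.9%) of 2071 on chromosome 15. It was 39.6% (35.9 to 43.3%) of 695 peaks on the X chromosome and 41.3% (38.6 to 44.1%) of 1283 on chromosome 13. Seen from DRIP, shares with DRIPc were closer together on the autosomes, from 39.2% on chromosome 2 to 51.6% on chromosome 1, and 36.6% on X.

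Sequences outside the assembled chromosomes carried 197 DRIPc and 60 DRIP peaks. Of these 197 DRIPc peaks, 40 touched a DRIP peak, and over the whole list 58.2% did. On chr1_random 46.9% of 32 DRIPc peaks touched DRIP. None of the 68 on chrUn_random did, where the DRIP list had only 3 peaks to touch.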
